A study of Mus musculus with 12 samples.

Results

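The 41 genes described here copy DNA or supply the nucleotides for copying it. They were chosen by name, as the rows of the raw count table whose symbol is 1 of 41 listed replication and nucleotide synthesis genes, and all 41 were found among the 31099 genes of the table. The list falls into 8 roles: origin licensing (11 genes), helicase activation (6), the sliding clamp and its loader (5), polymerases and primase (6), maturation of the lagging strand (2), binding of single-stranded DNA (3), nucleotide synthesis (5) and copying of chromatin (3). RNA was measured by sequencing in cells sorted from wild-type CD-1 mouse pups of both sexes at postnatal day 3, with 3 libraries in each of 4 groups. The groups were perivascular preadipocytes and perivascular progenitors from the fat around the thoracic aorta, and ICAM1+ preadipocytes and DPP4+ progenitors from inguinal white fat. Each library came from a pool of pups, so a replicate is a pool, and libraries of the same number share a pool. Tissue was digested with collagenase D and dispase II and RNA was amplified by an ultra-low-input SMART-Seq protocol with poly(A) selection. No source used here names the markers by which the perivascular cells were sorted, so depot and sort gate cannot be told apart in the comparisons between depots.

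Replication begins when the origin recognition complex, CDC6 and CDT1 load the ring of MCM proteins onto DNA, and geminin blocks CDT1 once S phase has started. CDC45 and the GINS complex turn the MCM ring into an active helicase, the primase and polymerases copy both strands, and the clamp PCNA holds the polymerases on DNA. Ribonucleotide reductase and the thymidylate enzymes make the deoxynucleotides, and many genes of this machinery are transcribed around the entry into S phase by E2F factors. Fat grows quickly in newborn mice, and the precursor cells of the stroma divide at this age.

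Levels are in CPM, each count divided by its TMM-scaled library size, and fold changes are log2 values of the first group named minus the second, from edgeR's quasi-likelihood fit of all 12 libraries. A gene is said to have risen or fallen where the Benjamini-Hochberg adjusted p over the 18855 genes tested was under 0.05. Library totals ran from 15614628 to 25674461 counts. TMM factors were 0.744 to 0.814 in DPP4+ libraries and 1.001 to 1.22 in the others. The inguinal sort markers followed their labels: Dpp4 was at 1460 to 1593 CPM in DPP4+ libraries and at most 97.2 CPM in any other, and Icam1 was at 485 to 507 CPM in ICAM1+ libraries and at most 102 CPM elsewhere. Pdgfra, a receptor of fat precursor cells, was at 118 CPM or more in every library. Of 12 listed fibroblast and precursor markers, 11 fell in perivascular preadipocytes against ICAM1+ cells and 11 against perivascular progenitors, Pdgfra among them both times. By correlation over the 2000 most variable genes, 11 of 12 libraries were closest to another of the same group, the exception being perivascular progenitor library 1.

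Most of the 41 genes shared an order of groups by level. Summed over the 41 genes, the level was 3591 ± 741 CPM in perivascular preadipocytes, 1806 ± 51.6 CPM in perivascular progenitors, 1391 ± 18.5 CPM in ICAM1+ preadipocytes and 825 ± 34.9 CPM in DPP4+ progenitors (SD, n = 3 each). No library of one group reached the range of another in this sum, which ran from 2746 to 4128, 1747 to 1843, 1377 to 1412 and 787 to 856 CPM in the same order of groups. All 41 genes had their highest mean in perivascular preadipocytes, and 40 had their lowest in DPP4+ progenitors, the exception being Rrm1. By mean log2 CPM, 37 of 41 genes followed the whole order (perivascular preadipocytes above perivascular progenitors, ICAM1+ and DPP4+ cells), against 13.2% of all genes tested. The exceptions were Pcna, Rfc2, Rrm1 and Fen1. The middle of the order was the least separate: 25 of 41 genes had all perivascular progenitor libraries above all ICAM1+ libraries, against 20.3% of all genes. In these bulk libraries, a larger share of cells in S phase and more RNA of each gene per cell cannot be told apart.

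**Figure D1:**
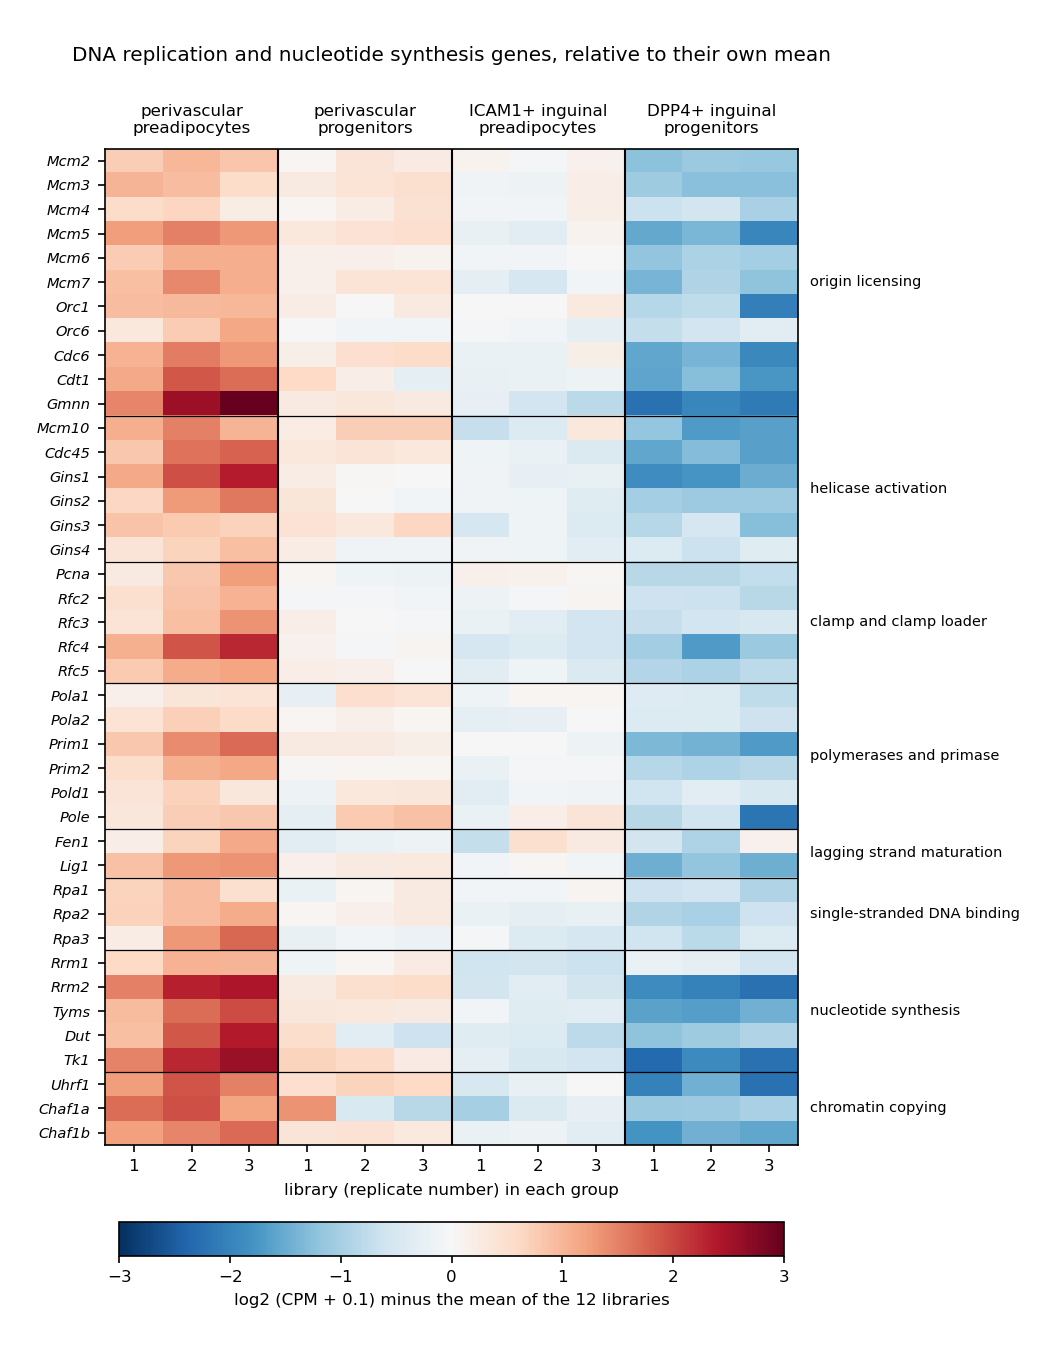
Log2 CPM of each of the 41 genes (rows, by role) in each of the 12 libraries (columns), relative to the gene's own mean over the libraries. Perivascular preadipocyte libraries are the highest and DPP4+ libraries the lowest for nearly every gene, and perivascular preadipocyte library 1 is paler than libraries 2 and 3.

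Because the genes moved together, their promoters were searched for letters bound by cell cycle factors. RefSeq windows (build GRCm38.p6, from 250 bases before to 50 bases after an annotated start, 300 bases) were at hand for 33 of the 41 genes. Mcm4, Gmnn, Gins1, Gins2, Gins4, Rfc2, Prim2 and Pole had no window in the table. The E2F letters TTTCGCGC, TTTGGCGC, TTTCCCGC and TTTGCCGC, on both strands, were present in 13 of the 33 genes (39.4%), against 4.47% of the 11916 tested genes with a window and 2.605% of all 27025 genes with a window. The 13 were Mcm3, Mcm5, Mcm6, Mcm7, Orc1, Cdc6, Cdt1, Gins3, Rfc3, Pola1, Pold1, Lig1 and Uhrf1. They included 7 of the 11 licensing genes, of which Mcm4 and Gmnn could not be searched, and none of those for nucleotide synthesis. The CCAAT box, the letters of the factor NF-Y, was in 21 of 33 genes, against 42.4% of tested genes. The CHR letters TTTGAA, known from promoters of mitotic genes, were in 4 of 33 (Mcm2, Cdc45, Gins3 and Fen1), against 14.6% of tested genes. Among 18 genes of mitosis with a window the picture was turned round, with E2F letters in 1 and CHR letters in 12. A match is a run of letters and not a measured site, and no match says only that these letters are not in this window.

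The 3 genes with E2F letters that rose most between the progenitors were Uhrf1, Cdc6 and Mcm5. Fen1 had the lowest value in that comparison. It rests on 4 to 30 counts a library, and other exons overlap 84.2% of its exon length, so its value does not mark an unchanged gene. The windows of Uhrf1, Cdc6, Mcm5 and Fen1 are printed. All read 5′ to 3′ on the gene's strand, and capitals mark the E2F letters on either strand. For Uhrf1 and Fen1 the table holds 2 windows, of which 1 is shown. For Uhrf1 it was picked because it holds E2F letters, and the other window, from 56303087, held none. The Uhrf1 window shown lies inside the gene, which starts at 56303321, so its annotated start is not the first of the gene.
Uhrf1 (chr17:56304063-56304362, plus strand): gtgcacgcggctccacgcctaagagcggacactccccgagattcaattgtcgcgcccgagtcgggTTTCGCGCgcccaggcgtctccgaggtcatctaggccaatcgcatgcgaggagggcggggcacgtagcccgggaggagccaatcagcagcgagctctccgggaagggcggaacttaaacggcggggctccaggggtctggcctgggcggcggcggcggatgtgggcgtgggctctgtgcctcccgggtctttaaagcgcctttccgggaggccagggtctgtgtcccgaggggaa
Cdc6 (chr11:98907901-98908200, plus strand): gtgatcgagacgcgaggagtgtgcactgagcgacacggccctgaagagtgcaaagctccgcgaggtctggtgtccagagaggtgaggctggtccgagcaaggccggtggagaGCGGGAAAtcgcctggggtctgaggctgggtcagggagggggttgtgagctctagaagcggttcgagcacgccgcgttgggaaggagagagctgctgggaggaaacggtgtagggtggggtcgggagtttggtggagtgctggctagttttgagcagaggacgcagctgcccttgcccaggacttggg
Mcm5 (chr8:75109259-75109558, plus strand): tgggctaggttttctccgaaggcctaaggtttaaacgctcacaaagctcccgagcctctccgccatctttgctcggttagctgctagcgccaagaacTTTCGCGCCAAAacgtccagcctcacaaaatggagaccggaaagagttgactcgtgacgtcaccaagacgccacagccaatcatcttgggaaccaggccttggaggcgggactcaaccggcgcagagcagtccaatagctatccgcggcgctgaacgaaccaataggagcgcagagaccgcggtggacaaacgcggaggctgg
Fen1 (chr19:10204344-10204643, minus strand): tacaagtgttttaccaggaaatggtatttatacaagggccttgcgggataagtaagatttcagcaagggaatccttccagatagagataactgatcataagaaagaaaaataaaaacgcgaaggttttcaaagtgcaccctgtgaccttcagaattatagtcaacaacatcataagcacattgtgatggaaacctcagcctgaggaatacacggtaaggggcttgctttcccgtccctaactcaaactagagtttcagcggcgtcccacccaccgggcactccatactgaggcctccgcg

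In the Uhrf1 window shown the letters began 185 bases before that window's annotated start, and in Cdc6 138 bases before the start. Mcm5 carried the letters on both strands within a single run, at 153 and 149 bases before the start. Fen1 held no E2F letters. The same letters in 8 more of the 13 genes, 4 for licensing and 4 of other roles, are shown with 10 bases to each side, so that they can be set beside those of the 3 genes above.
Mcm6 (chr1:128359735-128359762, minus strand): attggacgggTTTGGCGCgaagtagctc
Mcm7 (chr5:138171850-138171877, minus strand): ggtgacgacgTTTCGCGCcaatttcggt
Orc1 (chr4:108579417-108579444, plus strand): tcggttagtgGCGCGAAAagttttctcc
Cdt1 (chr8:122568037-122568064, plus strand): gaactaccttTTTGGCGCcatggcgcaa
Gins3 (chr8:95633508-95633535, plus strand): cgagtgcggcGCGGGAAAgcgagtttga
Rfc3 (chr5:151651191-151651218, minus strand): TTTCGCGCtcGCGGGAAAactctactgt
Pola1 (chrX:93632276-93632303, minus strand): tcatcacaggGCGCCAAAtgcactcccg
Lig1 (chr7:13278842-13278869, plus strand): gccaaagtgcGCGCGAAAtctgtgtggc

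In Mcm7 the last base of the E2F run is also the first of a CCAAT run, and in Mcm6 an additional pair of E2F runs overlaps further upstream, at 110 and 106 bases before the start. Genes with the letters varied in size of change. Uhrf1, Cdc6 and Mcm5 differed between progenitors by log2 2.46, 2.05 and 2.03, and Pold1 and Rfc3, which also carry them, by 0.64 each. A relation between the letters and the size of change was not tested. Rrm2 and Tk1, which changed more than Cdc6, had no E2F letters in their windows.

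**Figure D2:**
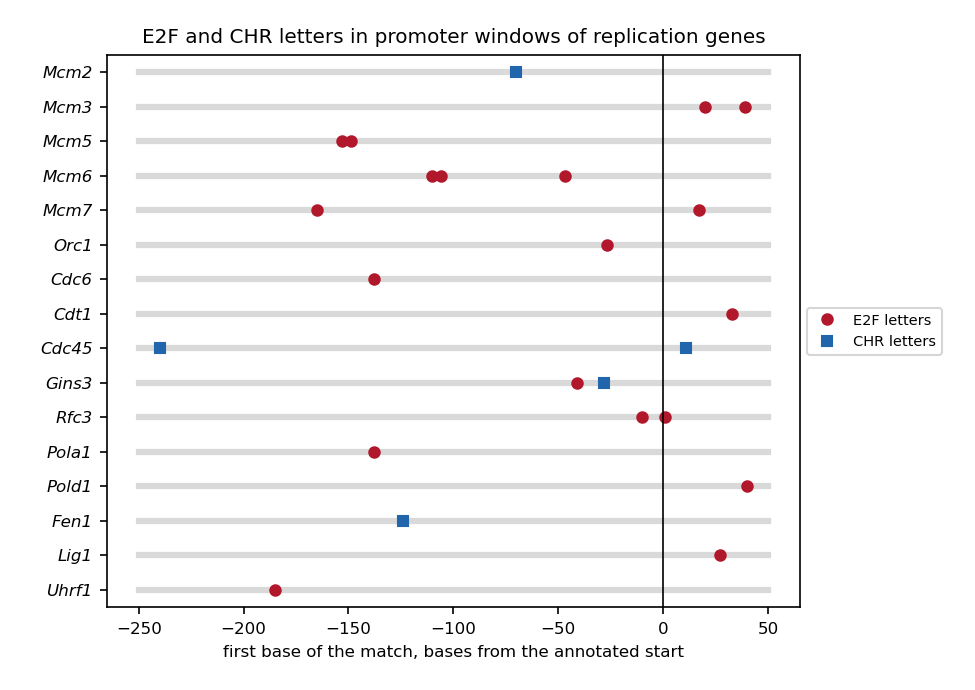
Position of E2F and CHR letters relative to the annotated start (x axis, bases, gene strand; each window against its own start) in the promoter windows of replication genes that hold either (y axis). E2F letters occur from 185 bases before to 40 bases after the start, and CHR letters in 4 genes.

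Between progenitors, 35 of 41 genes rose in perivascular cells against DPP4+ cells and none fell, against a background of 13.0% of all genes called higher and 11.8% called lower. Their median log2 fold change was 1.33, a fold of 2.51, against 0.05 over all genes tested. The largest differences were those of Tk1, the S phase thymidine kinase (log2 2.66 ± 0.26 SE, edgeR adjusted p = 1.11e-05), Rrm2, the small subunit of ribonucleotide reductase (2.49 ± 0.22, 5.30e-06), Uhrf1, which recognises hemimethylated DNA behind the fork (2.46 ± 0.23, 7.79e-06), and Gmnn, geminin (2.43 ± 0.34, 0.00022). The 6 genes that missed the threshold all had positive values: Dut (1.004 ± 0.35, adjusted p = 0.0521), Orc6 (0.48 ± 0.19, 0.0854), Gins4 (0.47 ± 0.16, 0.051), Rpa3 (0.44 ± 0.29, 0.302), Rrm1 (0.40 ± 0.16, 0.0896) and Fen1 (0.21 ± 0.50, 0.81). For 40 of 41 genes, Fen1 excepted, all perivascular progenitor libraries lay above all DPP4+ libraries, a separation that 22.7% of all genes showed. Of all genes called in this comparison 52.5% were higher in perivascular cells, and with library totals in place of TMM factors this share was 83.7%, with a median of 0.48 over all genes and 1.75 over the 41.

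Between preadipocytes, 38 of 41 genes rose in perivascular cells against ICAM1+ cells and none fell, against 23.5% of all genes called higher and 21.4% called lower. The median log2 fold change was again 1.33, against 0.04 over all genes. Gmnn differed most (3.05 ± 0.33 SE, edgeR adjusted p = 2.59e-05, a fold of 8.30), followed by Tk1 (2.64 ± 0.25, 1.11e-05), Rrm2 (2.63 ± 0.22, 4.04e-06) and Dut, the dUTPase that keeps uracil out of DNA (2.36 ± 0.35, 0.000252). The smallest values among genes that rose were those of Mcm4 (0.45 ± 0.17, 0.044) and Pold1 (0.65 ± 0.17, 0.00745). Pola1 (0.31 ± 0.19, adjusted p = 0.206), Pole (0.49 ± 0.37, 0.293) and Fen1 (0.67 ± 0.43, 0.225) missed the threshold. All perivascular libraries lay above all ICAM1+ libraries for 39 genes, the exceptions being Pole and Fen1, against 29.5% of all genes. The call of Mcm4 was lost with the replicate number as a block (edgeR adjusted p = 0.0725) and with the 2 groups fitted alone (adjusted p = 0.109). Other settings also lost it: DESeq2 size factors (0.0617), a minimum count of 30 (0.0556), no filter on low counts (0.119) and the DESeq2 Wald test (0.0552). With 1 library left out it was lost in 8 of 12 fits.

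**Figure D3:**
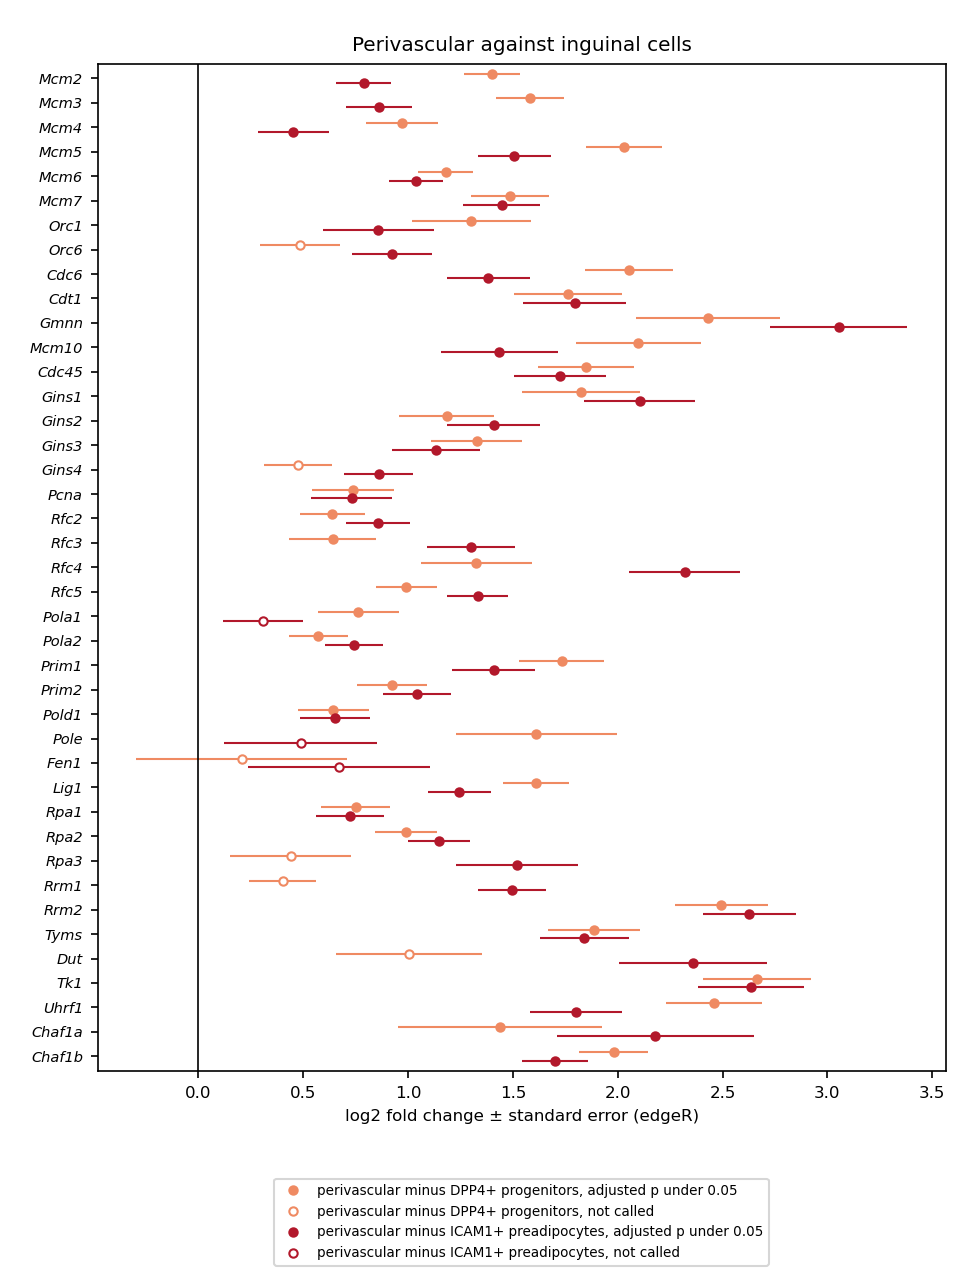
Log2 fold change of perivascular minus inguinal cells (x axis, ± SE from edgeR) for each of the 41 genes (y axis), between progenitors and between preadipocytes. Filled points passed the adjusted p threshold, open points did not, and every point is above 0.

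Origin licensing genes rose in nearly every comparison: 10 of 11 between the progenitors of the 2 depots, 11 of 11 between their preadipocytes, and 10 of 11 at each step from progenitor to preadipocyte, where Orc6 missed between progenitors and at the inguinal step and Mcm4 at the perivascular step. Mcm6 and Mcm4, subunits of the helicase ring, were the most abundant per kilobase of exon. Mcm6 (chromosome 1, 128331590 to 128359664) was at 179, 225 and 225 CPM in perivascular preadipocytes, 117, 118 and 115 CPM in perivascular progenitors, 101, 101 and 105 CPM in ICAM1+ libraries and 46.8, 55.0 and 52.8 CPM in DPP4+ libraries. All 4 groups were separate for this gene. Mcm4 (chromosome 16, 15623897 to 15637400) was at 114, 122 and 91.3 CPM in perivascular preadipocytes, 81.9, 91.1 and 108 CPM in perivascular progenitors, 74.6, 74.2 and 90.8 CPM in ICAM1+ libraries and 50.1, 53.2 and 39.9 CPM in DPP4+ libraries. Its DPP4+ libraries stood apart from all others, while its perivascular progenitor libraries overlapped those of perivascular preadipocytes and of ICAM1+ cells.

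Mcm2 and Mcm3, subunits of the same ring, were the licensing genes whose step from progenitor to preadipocyte differed between depots. Mcm2 (chromosome 6, 88883474 to 88898780) was at 87.3, 104 and 93.0 CPM in perivascular preadipocytes and 54.4, 68.2 and 62.3 CPM in perivascular progenitors, and at 56.5, 51.0 and 57.3 CPM in ICAM1+ libraries and 22.2, 24.2 and 23.6 CPM in DPP4+ libraries. Mcm3 (chromosome 1, 20802968 to 20820312) was at 83.4, 77.8 and 60.2 CPM in perivascular preadipocytes and 49.2, 54.7 and 57.6 CPM in perivascular progenitors, and at 37.9, 37.0 and 46.9 CPM in ICAM1+ libraries and 19.6, 17.2 and 17.1 CPM in DPP4+ libraries. Within each depot the preadipocytes lay above the progenitors for both genes, and the gap was wider, on the log2 scale, in inguinal cells. This difference between depots missed the threshold for both genes with the replicate number as a block (edgeR adjusted p = 0.0686 for Mcm2 and 0.0841 for Mcm3), and in 10 of 12 fits with 1 library left out. The rise of Mcm3 at the perivascular step was also lost with the block (adjusted p = 0.0719) and in 10 of the 12 fits.

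Gmnn, whose protein inhibits CDT1, was the most changed licensing gene. It averaged 69.3 ± 34.7 CPM in perivascular preadipocytes, 14.8 ± 0.428 CPM in perivascular progenitors, 8.35 ± 1.63 CPM in ICAM1+ preadipocytes and 2.75 ± 0.271 CPM in DPP4+ progenitors (SD, n = 3 each). Its target Cdt1 averaged 33.8 ± 8.34, 13.0 ± 3.90, 9.74 ± 0.301 and 3.83 ± 0.657 CPM in the same order of groups. The wide SD of Gmnn in perivascular preadipocytes came from single libraries at 33.3, 71.8 and 103 CPM, and even the lowest of these was above every library of the other groups. Cdc6, the loading factor, and Mcm5 rose by log2 2.05 and 2.03 between progenitors, and Orc1, the largest subunit of the origin recognition complex, rose by 1.30 at 6.01 ± 0.632 CPM in perivascular and 2.42 ± 1.04 CPM in DPP4+ progenitors. With the block Orc1 missed at the perivascular step (edgeR adjusted p = 0.0570). Orc6, a small subunit of that complex, was at 39.6 ± 1.11 CPM in perivascular and 28.3 ± 3.85 CPM in DPP4+ progenitors.

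Helicase activation genes rose in 5 of 6 cases between progenitors of the 2 depots and in 6 of 6 between preadipocytes, and in 4 of 6 at each step from progenitor to preadipocyte. The 4 GINS genes encode the subunits of a single complex. Gins4 (chromosome 8, 23226616 to 23237659) was at 46.5, 56.8 and 66.2 CPM in perivascular preadipocytes, 41.1, 33.1 and 33.1 CPM in perivascular progenitors, 32.9, 32.4 and 28.1 CPM in ICAM1+ libraries and 26.8, 22.9 and 27.6 CPM in DPP4+ libraries. Gins1 (chromosome 2, 150905400 to 150931280) was at 17.2, 29.8 and 40.2 CPM in perivascular preadipocytes, 9.03, 7.94 and 7.74 CPM in perivascular progenitors, 7.17, 6.47 and 6.63 CPM in ICAM1+ libraries and 2.07, 2.20 and 2.71 CPM in DPP4+ libraries. All 4 groups were separate for both genes, but the step in perivascular cells was log2 1.82 for Gins1 and 0.66 for Gins4. Gins3 did not pass at either step (0.32 in perivascular and 0.51 in inguinal cells) and rose by 1.33 and 1.13 between depots. Gins2 rose in all 4 comparisons, but 67.3% of its exon length overlaps exons of Gse1 on the other strand. Cdc45 rose in all 4 comparisons by log2 1.12 to 1.85. Mcm10, which helps start unwinding, rose by 2.10 and 1.43 between depots and by 1.31 at the inguinal step, and missed the threshold at the perivascular step (0.64, edgeR adjusted p = 0.0884).

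Clamp and clamp loader genes all rose between depots, 5 of 5 among progenitors and 5 of 5 among preadipocytes, and 5 of 5 at the perivascular step but 3 of 5 at the inguinal step, where Rfc3 and Rfc4 missed. Pcna (chromosome 2, 132249162 to 132253314) was at 128, 186 and 251 CPM in perivascular preadipocytes, 109, 97.1 and 95.9 CPM in perivascular progenitors, 117, 115 and 108 CPM in ICAM1+ libraries and 59.1, 59.2 and 63.2 CPM in DPP4+ libraries. Its perivascular progenitor and ICAM1+ libraries overlapped. Rfc4 (chromosome 16, 23113943 to 23127737), a subunit of the clamp loader, was at 51.3, 91.3 and 119 CPM in perivascular preadipocytes, 26.9, 23.5 and 26.0 CPM in perivascular progenitors, 17.3, 18.4 and 16.6 CPM in ICAM1+ libraries and 11.8, 7.44 and 11.2 CPM in DPP4+ libraries. The groups did not overlap, and Rfc4 rose by log2 2.32 between preadipocytes, with rises of 0.86, 1.30 and 1.33 for the other loader subunits Rfc2, Rfc3 and Rfc5. The rise of Rfc3 between progenitors was lost with the replicate block (edgeR adjusted p = 0.0664) and in 9 of 12 fits with 1 library left out. Exons of another gene cover 12.7% of the exon length of Rfc4 and 15.1% of that of Rfc2.

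Polymerase and primase genes rose in 6 of 6 cases between progenitors of the 2 depots, 4 of 6 between preadipocytes and 3 of 6 at each step. Those that missed were Pola1 and Pole between preadipocytes, Pola1, Pole and Pold1 at the perivascular step, and Pola1, Pola2 and Pold1 at the inguinal step. The rise of Pole at the inguinal step was lost with the replicate block (edgeR adjusted p = 0.0582) and in 8 of 12 fits with 1 library left out. Pold1, the catalytic subunit of polymerase delta (chromosome 7, 44532746 to 44548849), was at 43.1, 53.4 and 41.3 CPM in perivascular preadipocytes, 29.5, 40.8 and 41.4 CPM in perivascular progenitors, 26.3, 31.0 and 30.5 CPM in ICAM1+ libraries and 21.7, 26.1 and 23.7 CPM in DPP4+ libraries. Prim1, the primase subunit that makes the RNA primer (chromosome 10, 128015168 to 128030037), was at 51.5, 78.1 and 95.9 CPM in perivascular preadipocytes, 35.6, 35.2 and 33.3 CPM in perivascular progenitors, 29.4, 29.3 and 26.2 CPM in ICAM1+ libraries and 11.4, 10.9 and 9.02 CPM in DPP4+ libraries. The groups were separate for Prim1, while for Pold1 the perivascular progenitors overlapped both perivascular preadipocytes and ICAM1+ cells. Pola1, the catalytic subunit of polymerase alpha, averaged 38.4 ± 3.67 CPM in perivascular preadipocytes and 37.0 ± 9.47 CPM in perivascular progenitors. Pole, that of polymerase epsilon, averaged 19.8 ± 3.32 and 18.5 ± 7.17 CPM in these groups, and both genes were lowest there in perivascular progenitor library 1, at 26.2 and 10.3 CPM. Without that library the perivascular step was log2 -0.20 for Pola1 and -0.25 for Pole, and neither passed.

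Of the lagging strand genes, Lig1, the ligase that seals Okazaki fragments (chromosome 7, 13277283 to 13311433), was at 58.5, 78.4 and 80.2 CPM in perivascular preadipocytes, 35.1, 38.2 and 38.4 CPM in perivascular progenitors, 29.6, 32.1 and 29.9 CPM in ICAM1+ libraries and 11.3, 13.9 and 11.4 CPM in DPP4+ libraries. It rose in all 4 comparisons, by log2 0.96 to 1.61, with no overlap of groups. Fen1, the flap endonuclease (chromosome 19, 10199132 to 10204169), was at 0.787, 1.12 and 1.61 CPM in perivascular preadipocytes, 0.516, 0.576 and 0.595 CPM in perivascular progenitors, 0.368, 0.968 and 0.822 CPM in ICAM1+ libraries and 0.429, 0.304 and 0.738 CPM in DPP4+ libraries. These levels rest on 4 to 30 counts a library, and Fen1 passed in none of the 4 comparisons. Exons of Tmem258 and Gm10143 on the other strand cover 84.2% of the exon length of Fen1, and the sources used here do not say whether reads were counted by strand. The part of depth and of the overlapping exons in its values was not tested.

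Rpa1, Rpa2 and Rpa3 encode the 3 subunits of the complex that coats single-stranded DNA. All 3 rose between preadipocytes and at the perivascular step, and Rpa1 and Rpa2 also in the other comparisons, where Rpa3 missed. Rpa2 (chromosome 4, 132768332 to 132778752) was at 64.9, 76.6 and 87.5 CPM in perivascular preadipocytes, 42.4, 44.7 and 48.6 CPM in perivascular progenitors, 35.5, 33.3 and 34.7 CPM in ICAM1+ libraries and 21.7, 20.5 and 26.2 CPM in DPP4+ libraries. Rpa3 (chromosome 6, 8255936 to 8259173) was at 40.0, 84.6 and 114 CPM in perivascular preadipocytes, 29.4, 32.3 and 30.4 CPM in perivascular progenitors, 33.0, 25.9 and 24.2 CPM in ICAM1+ libraries and 22.6, 19.6 and 25.8 CPM in DPP4+ libraries. Rpa2 separated all 4 groups, whereas for Rpa3 the perivascular preadipocytes stood apart and ICAM1+ libraries overlapped both progenitor groups.

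The nucleotide synthesis genes include Tk1, which had the highest fold change of the 41 between progenitors and at the inguinal step. All 5 rose between preadipocytes and at the perivascular step, while Rrm1 and Dut missed between progenitors and at the inguinal step. Rrm2 (chromosome 12, 24708241 to 24714146) was the gene with the highest level per kilobase of exon, a mean of 55.3 CPM per kilobase over the 12 libraries. Single libraries held 259, 459 and 489.6 CPM in perivascular preadipocytes, 109.7, 128 and 134 CPM in perivascular progenitors, 61.9, 71.7 and 61.9 CPM in ICAM1+ preadipocytes and 24.3, 22.3 and 19.2 CPM in DPP4+ progenitors. Every group was separate.

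Rrm1, the large subunit of the same enzyme (chromosome 7, 102441695 to 102469771), followed another order. Its libraries were at 231, 314 and 306 CPM in perivascular preadipocytes, 140.0, 158 and 179 CPM in perivascular progenitors, 100.2, 104 and 97.1 CPM in ICAM1+ preadipocytes and 132, 127 and 102 CPM in DPP4+ progenitors. It was the only gene of the 41 with its lowest mean in ICAM1+ cells. The perivascular step was a rise of log2 0.83 ± 0.16 (SE, edgeR adjusted p = 0.0026), and the inguinal step was -0.26 ± 0.16 (adjusted p = 0.318), which became 0.11 with library totals as the scale. Rrm2b, the small subunit that serves cells outside S phase, was at 8.89 ± 3.50 CPM in perivascular preadipocytes, 9.67 ± 2.95 CPM in perivascular progenitors, 11.3 ± 0.538 CPM in ICAM1+ preadipocytes and 12.1 ± 0.837 CPM in DPP4+ progenitors and passed in no comparison (log2 -0.35 to -0.10).

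Dut (chromosome 2, 125247190 to 125258608) was at 55.3, 107 and 154 CPM in perivascular preadipocytes, 42.2, 23.7 and 19.0 CPM in perivascular progenitors, 22.7, 22.0 and 16.9 CPM in ICAM1+ preadipocytes and 12.7, 14.0 and 15.6 CPM in DPP4+ progenitors. Perivascular preadipocytes were separate from all other groups, and perivascular progenitor library 1 was high within its own. Tk1 averaged 168 ± 60.6 CPM in perivascular preadipocytes, 52.3 ± 7.79 CPM in perivascular progenitors, 27.1 ± 2.53 CPM in ICAM1+ preadipocytes and 8.24 ± 1.37 CPM in DPP4+ progenitors (SD, n = 3 each). Tyms, thymidylate synthase, averaged 141 ± 47.0, 58.0 ± 1.264, 39.3 ± 4.15 and 15.7 ± 1.28 CPM in the same order. The mitochondrial thymidine kinase Tk2 went the other way where it changed: it was lower in perivascular preadipocytes than in ICAM1+ preadipocytes (log2 -0.52, edgeR adjusted p = 0.0317) and than in perivascular progenitors (-0.66, adjusted p = 0.0146).

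Chromatin copying genes rose in all cases but 1, Chaf1a at the inguinal step. Uhrf1 (chromosome 17, 56303321 to 56323486) was at 94.7, 149 and 114 CPM in perivascular preadipocytes, 56.8, 63.3 and 60.3 CPM in perivascular progenitors, 28.7, 34.3 and 39.3 CPM in ICAM1+ preadipocytes and 9.72, 14.7 and 8.45 CPM in DPP4+ progenitors. Chaf1b, a subunit of the histone chaperone CAF-1 (chromosome 16, 93883901 to 93906115), was at 49.6, 58.3 and 68.6 CPM in perivascular preadipocytes, 27.7, 28.7 and 26.0 CPM in perivascular progenitors, 18.6, 19.0 and 16.7 CPM in ICAM1+ preadipocytes and 6.001, 7.74 and 7.14 CPM in DPP4+ progenitors. Both genes separated all 4 groups. Chaf1a, the large CAF-1 subunit, was at 16.4, 4.66 and 3.57 CPM in perivascular progenitors and 2.93, 2.96 and 3.20 CPM in DPP4+ progenitors, and its call between them (log2 1.44, adjusted p = 0.0466) did not hold when perivascular progenitor library 1 was left out (0.44, adjusted p = 0.317), nor with the replicate block (adjusted p = 0.0923) or in 8 other fits with 1 library left out. Its call at the perivascular step was lost in 10 of 12 such fits (adjusted p = 0.0571 to 0.146) and with the 2 groups fitted alone (adjusted p = 0.125). Exons of Ubxn6 on the other strand cover 52.5% of the exon length of Chaf1a.

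**Figure D4:**
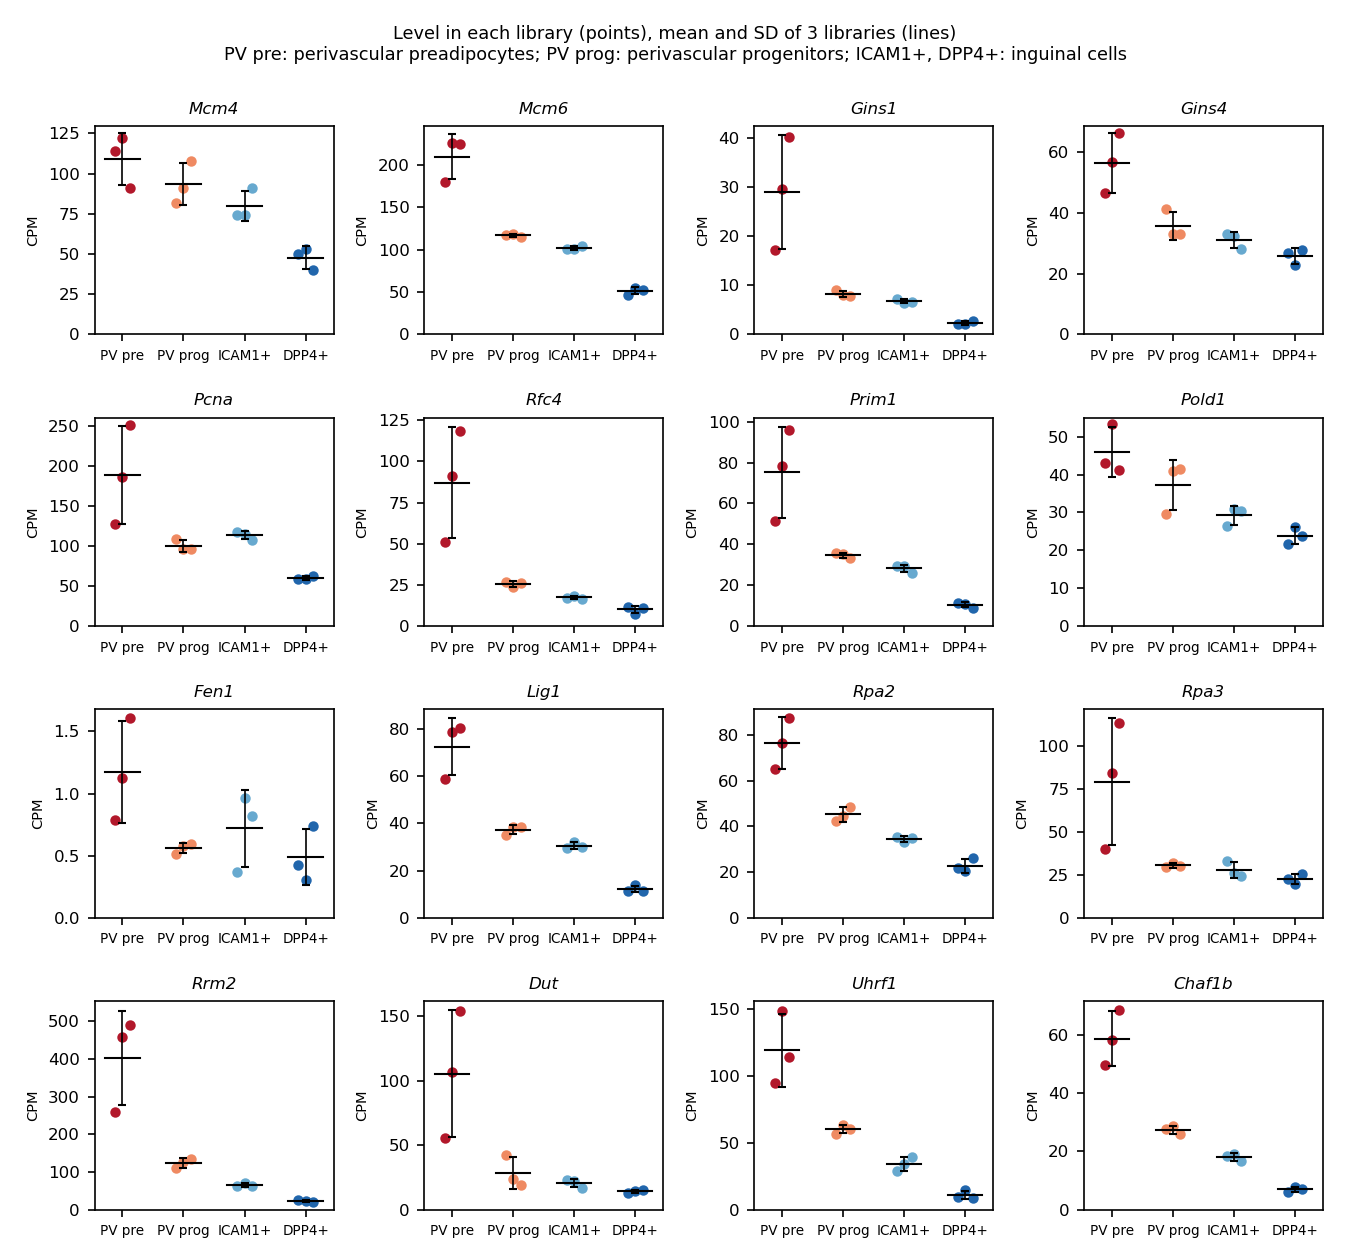
CPM (y axis, linear, from 0) of the 2 most abundant genes per kilobase of exon in each role, in each library, by group. Points are libraries and lines the mean and SD of 3. Perivascular preadipocytes have the highest mean in every panel, with the widest spread in most.

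Most of the genes were also higher in preadipocytes than in progenitors of the same depot. In perivascular cells 34 of 41 rose in preadipocytes against progenitors and none fell, against 16.8% of all genes called higher and 16.1% called lower, with a median log2 fold change of 0.90 against -0.05 over all genes. In inguinal cells 28 of 41 rose in ICAM1+ preadipocytes against DPP4+ progenitors and none fell, against 9.34% of all genes called higher and 8.61% called lower, with a median of 0.88 against 0.02. At the perivascular step Gmnn rose most (2.22 ± 0.31 SE, edgeR adjusted p = 0.000516), followed by Dut (1.90 ± 0.35, 0.00193), Gins1 (1.82 ± 0.26, 0.000545) and Rfc4 (1.77 ± 0.26, 0.000601). At the inguinal step these were Tk1 (1.72 ± 0.25, 0.000407), Uhrf1 (1.64 ± 0.22, 0.000233), Gmnn (1.60 ± 0.34, 0.00554) and Rrm2 (1.57 ± 0.22, 0.00025). The lowest values were those of Pola1 (0.05), Pole (0.09), Mcm4 (0.22) and Pold1 (0.30) at the perivascular step, and of Rrm1 (-0.26), Rfc3 (0.22), Gins4 (0.27) and Rpa3 (0.29) at the inguinal step, none of which passed. All preadipocyte libraries lay above all progenitor libraries for 36 genes in perivascular cells (20.1% of all genes) and for 35 in inguinal cells (22.9% of all genes). The comparisons share groups with each other, so their values for a gene are not independent.

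The interaction, the perivascular step minus the inguinal step, was called higher for 1 of 41 genes and lower for 2, against 6.37% of all genes called higher and 8.66% called lower, with a median of -0.01. The step was larger in perivascular cells for Rrm1 (1.09 ± 0.23 SE, edgeR adjusted p = 0.00784) and smaller there for Mcm3 (-0.72 ± 0.22, 0.047) and Mcm2 (-0.61 ± 0.19, 0.0446). The highest and lowest values that did not pass were those of Dut (1.35, adjusted p = 0.0787), Rpa3 (1.08, 0.0919) and Rfc4 (0.99, 0.0862), and of Pole (-1.12, 0.166), Cdc6 (-0.67, 0.128) and Mcm10 (-0.66, 0.276). With the replicate number as a block 1 gene was called, Rrm1, while Mcm2 and Mcm3 missed (adjusted p = 0.0686 and 0.0841). The count was 8 without perivascular preadipocyte library 1 and 8 without perivascular progenitor library 1. It was 1 without any other single library, Rrm1 in each case.

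**Figure D5:**
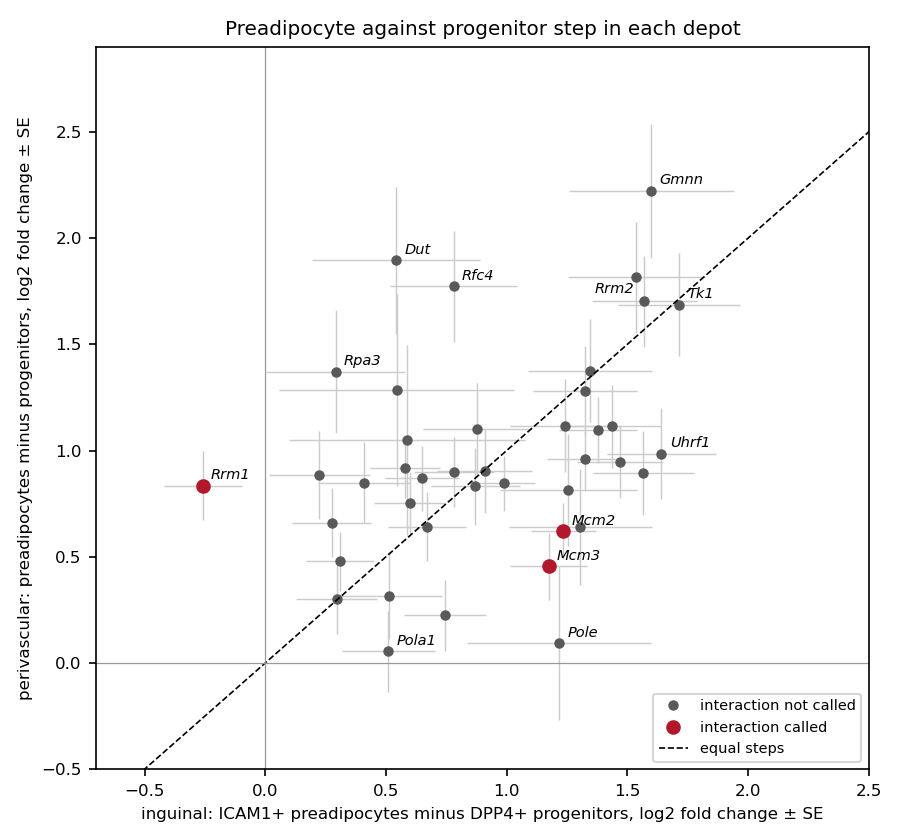
Log2 fold change of preadipocytes minus progenitors in perivascular cells (y axis) against that in inguinal cells (x axis), ± SE, 1 point per gene. The dashed line marks equal steps, and the 3 genes with a called interaction, Rrm1 above it and Mcm2 and Mcm3 below it, are in red.

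Perivascular preadipocyte library 1 was lower than the others of its group. In it 37 of 41 genes were below the group mean, with a median deviation of log2 -0.29, and the SD of the library medians was 0.40 in this group against 0.02 to 0.09 in the others. Gmnn was 0.382 and Rpa3 0.403 times the mean of libraries 2 and 3 there. The same library had the highest summed level of 12 fibroblast and precursor markers in its group, 72300 CPM against 35589 and 26890 CPM in libraries 2 and 3, and of 13 smooth muscle and pericyte markers, 936 CPM against 694 and 506 CPM. Deviations from the group mean also followed exon length across the 41 genes in libraries of every group. Spearman correlations ran from -0.52 in perivascular preadipocyte library 3 to 0.49 in ICAM1+ library 3, with 0.46 in perivascular preadipocyte library 1, over points that share the same libraries. Over all 18847 genes with an exon length, the deviations correlated with it at -0.32 in perivascular preadipocyte library 3 and 0.25 in library 1. The log2 fold changes of the 41 genes correlated with exon length at -0.42 at the perivascular step, -0.38 for the interaction, -0.24 between preadipocytes, 0.073 between progenitors and -0.010 at the inguinal step. Those of all 18847 genes did so at -0.22, -0.099, -0.14, -0.066 and -0.15 in the same order. The part of these in the results was not tested. Without library 1, 37 of 41 genes rose between preadipocytes (median 1.44) and 32 at the perivascular step (median 1.01).

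Markers of other cell types also differed between the groups. The shares of all genes called higher and lower, against which these counts stand, were 13.0% and 11.8% between progenitors, 23.5% and 21.4% between preadipocytes, 16.8% and 16.1% at the perivascular step and 9.34% and 8.61% at the inguinal step. Several of the endothelial and smooth muscle counts are near these shares. Of 18 haematopoietic markers, 11 fell in perivascular against DPP4+ progenitors and 8 in perivascular against ICAM1+ preadipocytes, and their sum was 44.9 to 65.1 CPM in perivascular preadipocytes, 29.6 to 79.7 CPM in perivascular progenitors, 110.5 to 159 CPM in ICAM1+ libraries and 109 to 467 CPM in DPP4+ libraries, highest in DPP4+ library 2. Of 12 mesothelial markers, 9 rose between progenitors and 8 rose and 3 fell between preadipocytes, with sums of 41.1 to 93.9, 160.0 to 294, 33.5 to 50.1 and 39.4 to 42.4 CPM in the same order. Of 12 endothelial markers, 1 rose and 4 fell between progenitors and 2 rose and 3 fell between preadipocytes, with sums of 90.1 to 138, 244 to 382, 188 to 230 and 796 to 1024 CPM. Of 13 smooth muscle and pericyte markers, 4 rose and 2 fell between progenitors and 1 rose and 3 fell between preadipocytes, with sums of 506 to 936, 587 to 846, 814 to 954 and 915 to 1057 CPM. Of 6 erythroid markers tested, none rose and 2 fell between progenitors, Hba-a1 and Hbb-bt. Between preadipocytes 1 rose, Tfrc, and 3 fell, Hba-a1, Hbb-bt and Ermap. Sums over 9 erythroid markers were 69.5 to 134, 25.7 to 44.8, 45.6 to 54.5 and 36.7 to 57.8 CPM. Between preadipocytes the globin genes Hba-a1 and Hbb-bt thus went the other way from this sum. None of these markers was at 0 in every library of a group. Fibroblast and precursor markers fell in 7 of 12 cases between progenitors and 11 of 12 between preadipocytes. These 12 include Dpp4 and Icam1, by which the inguinal cells were sorted, so changes of these genes against the inguinal groups are partly set by the sort. Sums of the 12 were 26890 to 72300 CPM in perivascular preadipocytes, 104372 to 166743 CPM in perivascular progenitors, 140998 to 167734 CPM in ICAM1+ libraries and 273894 to 324308 CPM in DPP4+ libraries. Markers moved at the steps too. At the perivascular step 11 of 12 fibroblast and precursor markers fell (median log2 -1.83), as did 7 of 12 mesothelial and 4 of 12 endothelial markers. There 3 of 18 haematopoietic and 2 of 6 erythroid markers (Epor and Tfrc) rose, and 2 of 13 smooth muscle and pericyte markers rose and 2 fell. At the inguinal step 5 of 12 fibroblast and precursor markers fell, the sort marker Dpp4 among them, and 1 rose, the sort marker Icam1. Of mesothelial markers 3 of 12 rose and 2 fell, and of endothelial markers 1 of 12 fell. Of smooth muscle and pericyte markers 4 of 13 rose and 2 fell, 1 of 6 erythroid markers rose (Epor), and no haematopoietic marker was called. The part of other cell types in the values of the replication genes was not tested. Marker sums differed between whole groups, so leaving out single libraries cannot decide it. A further fit left out DPP4+ library 2 and the first libraries of both perivascular groups, an exclusion chosen after seeing the data. In it the replication genes rose in 36, 37, 33 and 31 cases (between progenitors, between preadipocytes, at the perivascular and at the inguinal step).

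Other genes of the same processes were counted in the same way, to be read against the shares of all genes called that are given with the markers. Of 28 further replication factors, 16 rose between progenitors, 23 between preadipocytes, 15 at the perivascular step and 7 at the inguinal step, with 1 fall at each step. Dna2, a nuclease and helicase that trims flaps, rose by log2 2.13 between progenitors and 1.90 between preadipocytes, and Dbf4, the activator of the origin-firing kinase CDC7, by 1.38 and 1.46. Of 15 genes of fork protection and of cohesion at forks, 13, 12, 11 and 10 rose in the 4 comparisons and none fell, led between progenitors by the cohesin acetyltransferase Esco2 (2.76), the nuclease Exo1 (2.76) and Rad51ap1 (2.40). Of 13 further genes of chromatin at the fork, 8, 10, 10 and 6 rose and none fell, with the histone chaperone Asf1b changing most between progenitors (3.08, 40.5 ± 4.57 CPM in perivascular and 4.79 ± 0.567 CPM in DPP4+ cells).

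Other genes of nucleotide supply, not all of them upstream of the 5 nucleotide synthesis genes, were counted in 2 further lists. Of 15 thymidylate and deoxynucleotide genes, 8 rose and 2 fell between progenitors, 10 rose and 2 fell between preadipocytes, 10 rose and 1 fell at the perivascular step and 4 rose at the inguinal step. Those that fell were Nme2 and Samhd1 between progenitors, Tk2 and Samhd1 between preadipocytes, and Tk2 at the perivascular step. Shmt1, a source of one-carbon units for thymidylate, was at 62.3, 112 and 83.4 CPM in perivascular preadipocytes against 13.5, 12.7 and 14.4 CPM in ICAM1+ preadipocytes (log2 2.67, edgeR adjusted p = 3.83e-05). Of 17 genes of de novo purine and pyrimidine synthesis, 7 rose and 2 fell between progenitors, 14 rose between preadipocytes, 10 rose at the perivascular step, and 2 rose and 2 fell at the inguinal step, where 11.8% of the list in each direction is near the 9.34% higher and 8.61% lower of all genes. The genes that fell at the inguinal step were Umps, which makes UMP (-1.03, adjusted p = 0.000378), and Ctps, which makes CTP (-0.67, adjusted p = 0.00154). Umps was at 37.3, 37.6 and 37.3 CPM in ICAM1+ libraries against 73.4, 74.1 and 81.7 CPM in DPP4+ libraries, without overlap.

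Among 16 E2F and pocket protein genes, 5 rose and 1 fell between progenitors, and 9 rose and 1 fell between preadipocytes. At the perivascular step 6 rose and 1 fell, and at the inguinal step 3 rose and 1 fell. Of all genes, 13.0% were called higher and 11.8% lower between progenitors, 23.5% and 21.4% between preadipocytes, 16.8% and 16.1% at the perivascular step and 9.34% and 8.61% at the inguinal step. E2f7, an E2F repressor of S phase genes, was at 14.99, 20.7 and 15.2 CPM in perivascular preadipocytes, 16.1, 18.1 and 20.99 CPM in perivascular progenitors, 14.1, 15.5 and 15.1 CPM in ICAM1+ libraries and 79.7, 81.2 and 85.1 CPM in DPP4+ libraries. It fell in perivascular against DPP4+ progenitors (log2 -2.16, edgeR adjusted p = 1.39e-06). DPP4+ libraries, the highest in E2f7, were the lowest in the summed level of the 41 genes. In the other groups, whose sums were separate, E2f7 was at 14.1 to 20.99 CPM. A link between E2f7 and the 41 genes was not tested. E2f8, the related repressor, rose instead between progenitors (2.15, adjusted p = 0.000133). E2f1 was at 26.4 ± 15.7 CPM in perivascular progenitors, with library 1 at 44.5 CPM, against 21.3 ± 2.52 CPM in DPP4+ progenitors.

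Genes of mitosis, which act after replication, followed the same order of groups. All 20 listed mitosis genes rose in all 4 comparisons. Of all genes, 13.0% were called higher between progenitors, 23.5% between preadipocytes, 16.8% at the perivascular step and 9.34% at the inguinal step. The median log2 fold changes of the 20 were 2.48 between progenitors, 1.73 between preadipocytes, 0.99 at the perivascular step and 1.79 at the inguinal step. The medians of the 41 replication genes in these comparisons were 1.33, 1.33, 0.90 and 0.88. The interaction was called lower for 7 of 20 mitosis genes, against 8.66% of all genes called lower and 2 of the 41 replication genes. Their summed level was 1832 ± 312 CPM in perivascular preadipocytes, 880 ± 67.1 CPM in perivascular progenitors, 524 ± 37.2 CPM in ICAM1+ preadipocytes and 152 ± 29.3 CPM in DPP4+ progenitors (SD, n = 3 each).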

How the data were processed

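Per the labels' protocols, RNA of sorted cells was made into libraries by SMART-Seq v4, a method for very small inputs, with poly(A) selection. The submitters' processing notes name STAR 2.5.2a, DESeq2 1.26.0 and mm10. No source used here gives the counter, its annotation or its use of strand. The authors deposited raw counts per gene and library, which all results use. They also deposited a size-factor scaled signal and regularised log2 values, which were read only to check them against the counts. In the signal table, the ratio to the raw count was constant within each of the 12 columns.

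Counts were fitted with edgeR 4.0.16 (limma 3.58.1, R 4.3.3). Genes were kept by filterByExpr with a minimum count of 10, leaving 18855, and scaled by TMM factors. A single quasi-likelihood model held a mean for each of the 4 groups of 3 libraries. Tests are two-sided with Benjamini-Hochberg adjustment over the genes tested, at a threshold of 0.05, and p-values measure the spread between pools of mice. Of the count table's genes, 31074 matched GENCODE release M21 (GRCm38, the same build as mm10), which gave positions, exon lengths and exon overlaps. Alternatives were DESeq2 1.42.0 size factors and its Wald test, library totals, other filters, limma-voom weights, the replicate block, the compared groups alone and each library left out. The scripts were tested on simulated counts. Interactions differ between 4 means, so no subset of groups could replace that fit.

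The labels say that libraries of the same number share pools of mice, so the numbers pair the samples. The deviations of same-numbered libraries correlated at -0.21 to 0.15 over 18 pairs, and 5 pairs were over 0.1. The 41 genes and the further lists, written from textbook knowledge, were chosen with earlier results of these data known. Values are given by library for the 2 genes of each role with the highest CPM per kilobase and for genes with a called interaction. Statistics are given for the 4 highest and 4 lowest changes of each comparison and for genes that missed the threshold between depots.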

Additional observations from a re-analysis of the deposited data

Results flagged for a closer look

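For 25 of 165 genes of replication, nucleotide supply, chromatin, E2F regulation and mitosis, the step from progenitor to preadipocyte differed between the depots by the test of that difference (edgeR interaction term, adjusted p under 0.05). Of the 165, 9.09% were called higher and 6.06% lower, against 6.37% and 8.66% of all genes tested. The count as a whole is near the background, though some lists within it were not. The calls outside the 41 genes were not followed through the alternative fits. A further 15 of 73 tested markers of other cell types and of precursors were called, 7 higher and 8 lower. The values are log2 differences of the perivascular step minus the inguinal step. Among the 41 replication genes these were Rrm1 (1.09), Mcm3 (-0.72) and Mcm2 (-0.61). Among further replication and fork genes they were Mcm8 (1.38), Rnaseh2c (1.15), Pold3 (0.62) and Brca1 (-1.32). Among further genes of nucleotide supply, all 9 called differences were positive: Umps (1.66), Dctpp1 (1.47), Nme1 (1.23), Impdh1 (1.03), Ctps (1.01), Mthfd2 (0.98), Mthfd1 (0.94), Adsl (0.86) and Adss (0.56). They made up 26.7% of 15 thymidylate and deoxynucleotide genes and 29.4% of 17 genes of purine and pyrimidine synthesis, against 6.37% of all genes. Among E2F genes they were E2f7 (2.34) and E2f2 (1.91). E2f2, an activator of S phase genes, was at 9.83 to 23.9 CPM in perivascular preadipocytes and 3.84 to 5.93 CPM in perivascular progenitors, against 2.44 to 2.88 CPM in ICAM1+ and 1.71 to 3.95 CPM in DPP4+ libraries. The 7 mitosis genes among the 25, Kif11 (-1.37), Top2a (-1.32), Mki67 (-1.22), Cenpf (-1.16), Aurkb (-1.05), Nuf2 (-0.83) and Nusap1 (-0.68), had negative values. These made up 35% of 20 listed mitosis genes, against 8.66% of all genes called lower. Top2a, the topoisomerase of dividing cells, was at 177, 212 and 187 CPM in perivascular preadipocytes and 93.1, 128 and 136 CPM in perivascular progenitors, against 72.4, 68.6 and 67.2 CPM in ICAM1+ and 16.6, 20.9 and 14.3 CPM in DPP4+ libraries.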

How the results depend on the processing

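The counts of replication genes that rose in the 4 comparisons between 2 groups stayed within 1.5 times under every alternative run, and none fell in any of the 4 except Rrm1 at the inguinal step with limma-voom weights (-0.30). With single libraries left out the counts were 31 to 38 between progenitors, 36 to 38 between preadipocytes, 29 to 33 at the perivascular step and 25 to 29 at the inguinal step. The calls kept in all 12 of these fits were 30 of 35, 36 of 38, 29 of 34 and 23 of 28. The median between progenitors was 1.75 with library totals, 1.20 with limma-voom, 1.22 without the 3 libraries that stand apart (an exclusion chosen after seeing the data) and 1.20 to 1.43 with single libraries left out. At the inguinal step it was 1.25 with library totals. That scale moved the median of all genes to 0.48, 0.27, 0.12 and 0.40 in the 4 comparisons and to -0.21 in the interaction, and the share of called genes that were higher to 83.7%, 66.5%, 66.3% and 82.6%. The interaction count of 3 became 1 with no filter, 12 with limma-voom, 1 to 8 with single libraries left out and 16 without the 3 libraries, and the cause was not tested. With the groups compared alone, 26 genes rose at the perivascular step.

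With the replicate block the counts were 33, 37, 32 and 27, and 1 for the interaction. The calls lost were those of Chaf1a and Rfc3 between progenitors, Mcm4 between preadipocytes, Mcm3 and Orc1 at the perivascular step and Pole at the inguinal step, besides Mcm2 and Mcm3 in the interaction, and the block changed no other call.

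Signs were followed only for the 4 highest and 4 lowest changes of each comparison, the called interactions and genes that missed the threshold between depots. Among these, values that changed sign had all missed the threshold. Pola1 at the perivascular step was -0.044 with limma-voom, -0.13 without the 3 libraries and -0.20 to 0.15 with single libraries left out, and Pole was -0.0098, -0.13 and -0.25 to 0.30. Fen1 between progenitors was -0.039 to 0.61 with single libraries left out, the lowest without DPP4+ library 2, and Rrm1 at the inguinal step was 0.11 with library totals. Fen1 had the lowest depth, at 4 to 30 counts a library.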
